A study of Mus musculus with 24 samples.

Results

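Insulin and insulin-like growth factor (IGF) signalling in the mouse hypothalamus was examined through 10 genes, namely the ligands Igf1 and Igf2, the receptors Insr and Igf1r, the receptor substrates Irs1 and Irs2, the transcription factor Foxo1 and the binding proteins Igfbp3, Igfbp4 and Igfbp5. They were the rows of the hypothalamic count table whose Ensembl gene identifiers map to those symbols, 10 of the 55471 genes counted. Each symbol matched a single row, and all 10 members were among the 18992 genes that passed the filter on low counts and were tested.

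Insulin and the IGFs are circulating hormones that bind a pair of related receptor tyrosine kinases, the insulin receptor (Insr) and the IGF-1 receptor (Igf1r). The activated receptors phosphorylate the adaptor proteins Irs1 and Irs2, which recruit phosphoinositide 3-kinase, and the kinase Akt then keeps the transcription factor FoxO1 out of the nucleus. IGF-binding proteins hold the IGFs in the extracellular space and set how much ligand reaches the receptor. In the hypothalamus, insulin acts on neurons that express Agrp or Pomc to restrain feeding, and FoxO1 in those neurons controls transcription of the genes for their neuropeptides.

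Polyadenylated RNA was sequenced from the hypothalamus of male C57BL/6J mice that were overfed experimentally (ExpOF) or not, all kept on chow and, per the study's methods for its tissue cohorts, 18 weeks old. ExpOF mice received a liquid diet with added sucrose through an intragastric tube, at a rate raised stepwise until it supplied 150% of energy needs by day 9, whereas control mice received sterile water at matched rates. Mice were killed on day 14, at the end of overfeeding (ExpOF d14 and Control d14), or on day 17, after 3 days in which all mice were infused with sterile water only (ExpOF d14+3 and Control d14+3). Each library came from the dissected hypothalamus of 1 mouse, 6 mice a group, 3 from a July and 3 from a September cohort. RNA was extracted in 2 rounds, each holding mice of every group and of both cohorts. The study left out 1 Control d14 mouse, here identified as replicate 4, so the comparisons rest on 5 Control d14 mice and 6 in each of the other groups.

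The 23 libraries held between 8928182 and 34848437 counted read pairs, and no 2 libraries of a group were alike enough to be the same library deposited again. RNA integrity numbers ran from 8 to 10 in Control d14 and 9.6 to 10 in ExpOF d14. On d14+3 they were 7.2 to 9.9 in controls and 8.8 to 10 in ExpOF mice. Genes that mark neurons were abundant in every library, with a summed level of 4459 to 5214 CPM (counts per 1e6 counts of the library, after scaling) over 10 genes, and the hypothalamic neuropeptide and transcription factor list summed to 529 to 1352 CPM, with Kiss1 at 0 in all 23. Tissue from outside the hypothalamus was unevenly present. Choroid plexus markers summed to 3112 CPM in Control d14 replicate 5 and 1331 CPM in ExpOF d14+3 replicate 4 against 40.2 to 77.5 CPM in the remaining 21 libraries, and pituitary hormone genes summed to 105 CPM in Control d14 replicate 1, 41.5 CPM in Control d14 replicate 2 and 20.2 CPM in ExpOF d14 replicate 4 against at most 9.14 CPM elsewhere. Markers of the leptomeninges, the membrane around the brain, ranged from 290 to 748 CPM. Estimates without these libraries are given for Igf1, Igf2 and Igfbp4 and for some counts of genes, and not for every result.

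On a scale per length of transcript (fragments per kilobase of the deposited exonic length per 1e6 counts, FPKM), the members spanned a wide range. Igfbp5 stood highest at 34.9 ± 3.00 FPKM (mean ± SD, n = 23 libraries, range 27.8 to 40.7), above 93.0% of the genes tested. Irs2 followed at 13.6 ± 0.977 FPKM (11.6 to 15.1), with no library in common with the range of Igfbp5 above it or of Insr below it. Insr at 5.28 ± 0.717 FPKM (3.87 to 6.22) was higher than Igf1r at 3.71 ± 0.421 FPKM (2.73 to 4.21), although their ranges overlapped.

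Igf1r, Igfbp3 (3.70 ± 0.368 FPKM), Igfbp4 (3.03 ± 0.844 FPKM) and Foxo1 (2.81 ± 0.244 FPKM) formed a middle group whose neighbours did not differ beyond their spread. Irs1 (1.14 ± 0.239 FPKM) and Igf1 (0.776 ± 0.206 FPKM) lay below it and overlapped each other, and Igf2 was the lowest at 0.179 ± 0.0974 FPKM (0.0883 to 0.479), above 4.67% of the genes tested. The substrate Irs2 thus had the higher level per length of the substrate pair, and Igfbp5 the highest of the 3 binding proteins. The highest library exceeded the lowest by 5.43-fold for Igf2, 2.76-fold for Igfbp4, 2.56-fold for Irs1 and 2.50-fold for Igf1, and by 1.30-fold to 1.77-fold for the other members.

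**Figure D1:**
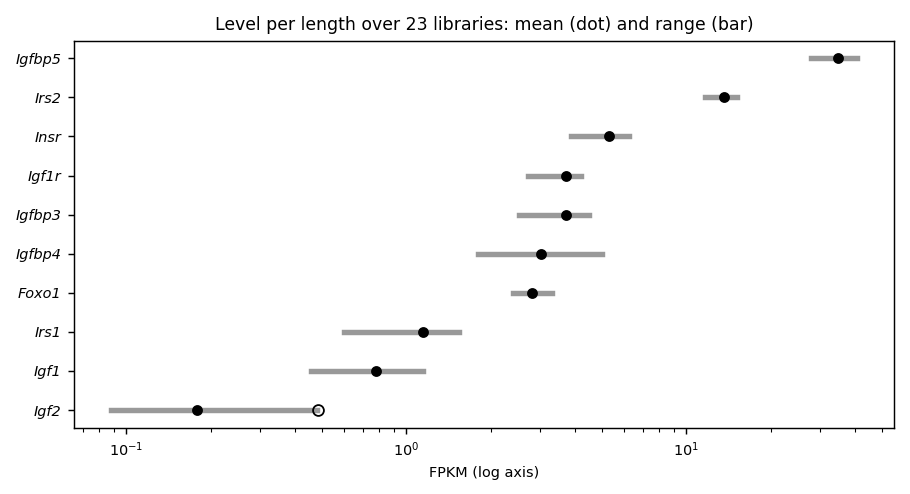
Level of the 10 members per length of transcript over 23 hypothalamus libraries. The x axis is FPKM on a log scale, dots are means and bars run from the lowest to the highest library. The open circle gives Igf2 at 0.482 FPKM when its counts are divided by the exonic length that no other gene on the same strand shares. Igfbp5 and Irs2 lie apart at the top and Igf2 at the bottom.

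The first question the design asks of these genes is whether overfeeding changed them at the end of the infusion, and whether a difference remained 3 days later. On d14, 0 of the 10 members passed an adjusted p of 0.05 (edgeR quasi-likelihood test, Benjamini-Hochberg adjustment over all genes tested), and over all genes 0.00527% did. With Control d14 replicate 1 left out, 4 members and 22.0% of all genes did. Without the adjustment, 2 members, Igf2 and Igfbp4, had a p under 0.05, both lower in ExpOF d14. That count was 6 without Control d14 replicate 1 (38.4% of all genes), 4 without ExpOF d14 replicate 1 (25.3%) and 0 with the 4 libraries richest in pituitary or choroid plexus RNA left out (10.7%). With all 24 libraries it was 6 (38.2%), and 1 with at least 10 counts required in every library (30%). It was 5 with leptomeningeal markers (23.9%) and 4 with RNA integrity (32.1%) as a covariate. DESeq2 gave 5, against 13.8% of the genes to which it gave a p-value. Over all genes 26.7% had such a p with the 23 libraries and 13.6% had it with a lower level. The members' 2 of 10 lay near that background, but the count and its distance from the background depended on the method. No member separated the groups without overlap, which 2.5% of all genes did. The median log2 fold change was 0.05 over the members and -0.02 over all genes, and 6 members were higher and 4 lower.

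On d14+3, 0 members passed the adjusted test, where 0% of all genes did, and 0 had an unadjusted p under 0.05, where 7.11% of all genes did. No member separated the groups (0.421% of all genes). The members' median log2 fold change was -0.01 against 0.01 for all genes, and the smallest adjusted p was 0.791. The difference between the days in the effect of overfeeding, tested as an interaction, was passed by 0 members after adjustment (0% of all genes) and by 0 without it (4.42%), the smallest adjusted p being 0.903.

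**Figure D2:**
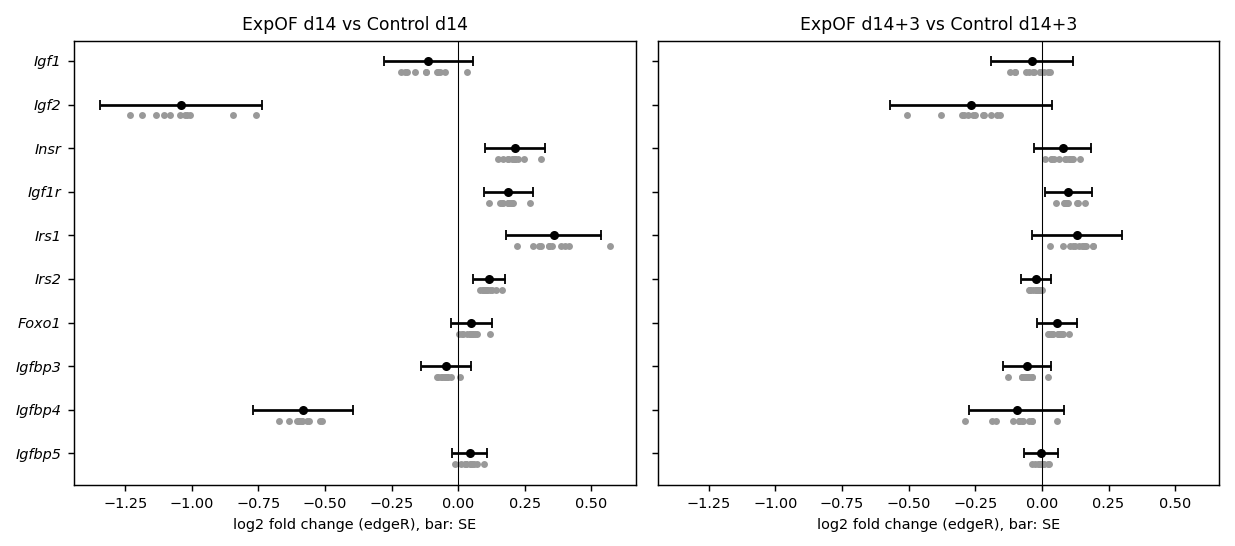
Log2 fold change, ExpOF against control, of the 10 members on d14 (left) and d14+3 (right). Black dots are the edgeR estimates with their standard errors and grey dots the estimates with each library left out in turn. Igf2 (-1.04) and Igfbp4 (-0.58) lie farthest from 0 on d14, and all members lie between -0.27 and 0.13 on d14+3.

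The second question is whether the members differed between the days within a diet. Between ExpOF d14+3 and ExpOF d14, 0 members passed the adjusted test (0% of all genes) and 2, Igf1 and Igfbp4, had an unadjusted p under 0.05, both higher on d14+3 (7.79% of all genes). Between Control d14+3 and Control d14, 0 members passed the adjusted test (1.15% of all genes). Without adjustment 4 members had a p under 0.05 (12.7% of all genes), with Igf1, Irs2 and Igfbp5 higher and Igf2 lower on d14+3. When both diets were averaged, a contrast chosen after the separate comparisons had been seen, Igf1 alone passed the adjusted test (3.67% of all genes), and 3 members, Igf1, Igfbp5 and Irs2, had an unadjusted p under 0.05 (13.7% of all genes). These day comparisons use the same libraries as the comparisons of diet and are not independent of them.

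Igf1 (ENSMUSG00000020053, mm10 chr10:87858265-87937042, plus strand) encodes IGF-1, made in the brain as well as in the liver. On d14 it stood at 4.53, 4.83, 6.33, 7.55 and 8.88 CPM in the Control d14 mice and at 5.03 to 7.24 CPM, median 5.66, in the ExpOF d14 mice. On d14+3 it stood at 7.12 to 11.2 CPM, median 9.07, in controls and 7.00 to 11.3 CPM, median 8.35, in ExpOF mice. The diets overlapped fully on both days, while 5 of 6 ExpOF d14+3 mice were above every ExpOF d14 mouse and 3 of 6 Control d14+3 mice above every Control d14 mouse.

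The diet comparison gave Igf1 a log2 fold change of -0.11 (SE 0.168, edgeR adjusted p = 0.673) on d14 and -0.04 (adjusted p = 0.954) on d14+3. Averaged over both diets, Igf1 was higher on d14+3 than on d14 by 0.55 on the log2 scale (SE 0.114, 1.46-fold, edgeR adjusted p = 0.00597). The days hold different mice, and the study set the infusion of all mice anew on day 14. Day of killing and infusion therefore cannot be told apart. Within a diet the difference did not pass the adjusted test, at 0.58 in ExpOF mice (adjusted p = 0.140, exact two-sided permutation p = 0.00649) and 0.51 in controls (adjusted p = 0.150, exact permutation p = 0.0260). Both cohorts had higher means on d14+3 in each diet. In July mice the means were 6.08 and 8.42 CPM in controls and 5.91 and 8.88 CPM in ExpOF, and in September mice 6.94 and 9.93 CPM in controls and 6.10 and 8.99 CPM in ExpOF.

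The averaged Igf1 difference kept its size within each cohort, 0.54 in both, but did not pass the test with the fewer libraries there (edgeR adjusted p = 0.322 in July and 0.198 in September). It also missed the test with all 24 libraries (0.46, adjusted p = 0.0736) and with the 4 libraries richest in pituitary or choroid plexus RNA left out (0.54, adjusted p = 0.0614). With any 1 of the 23 libraries left out it passed, between 0.49 and 0.62. The summed hypothalamic markers moved the other way, from 749 to 1352 CPM in Control d14 and 718 to 971 CPM in ExpOF d14 to 603 to 906 CPM in Control d14+3 and 529 to 774 CPM in ExpOF d14+3, while the neuron markers summed to 4459 to 4653 and 4640 to 5134 CPM on d14 and 4838 to 5135 and 4777 to 5214 CPM on d14+3. The hypothalamic sum rests mostly on the neuropeptide genes Pmch, Trh, Oxt, Hcrt and Avp, which held the most counts of that list. Hcrt (log2 fold change -0.69), Avp (-0.83) and Oxt (-0.70) were lower in ExpOF d14 at an unadjusted edgeR p under 0.05. Pmch (-0.02) and Trh (-0.14) were not. The part of the hypothalamic or the neuron sum in the Igf1 difference was not tested. In bulk tissue, fewer cells of a type and less RNA per cell cannot be told apart.

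**Figure D3:**
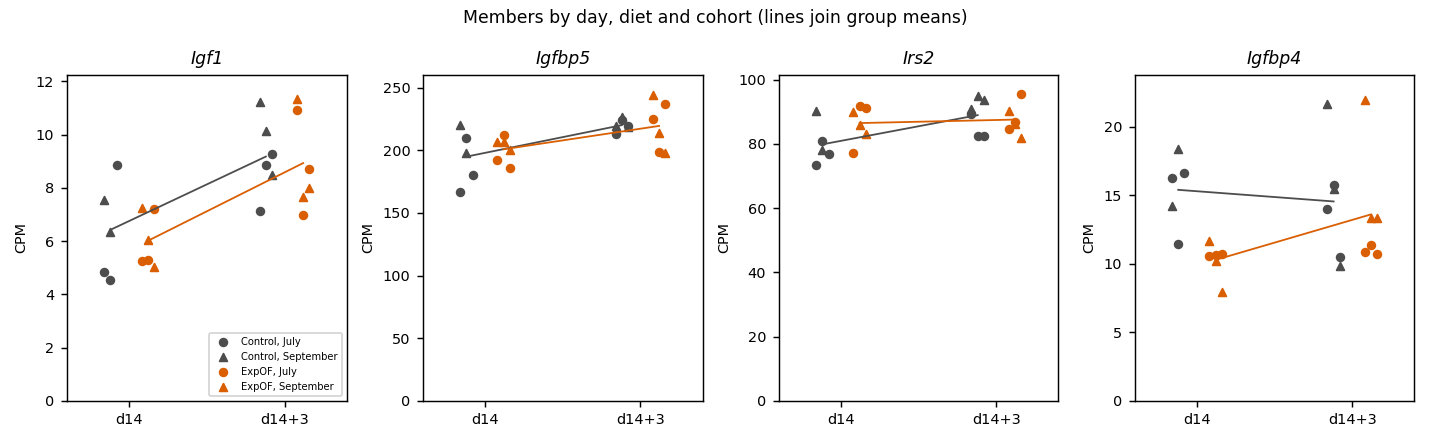
CPM of Igf1, Igfbp5, Irs2 and Igfbp4 by day in control and ExpOF mice. Each point is 1 mouse, circles are the July and triangles the September cohort, and lines join the means of a diet. Igf1 lies higher on average on d14+3 in both diets, with means of 6.42 and 6.01 CPM on d14 and 9.17 and 8.93 CPM on d14+3.

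Igf2 (ENSMUSG00000048583, mm10 chr7:142650766-142666816, minus strand) encodes IGF-2, which in the brain comes mainly from the meninges and choroid plexus. It rested on few reads, with 6 to 81 counts a library. In Control d14 mice it stood at 0.690, 0.929, 1.26, 2.52 and 2.74 CPM, and in ExpOF d14 mice at 0.676 to 0.959 CPM, median 0.749. The highest values, 2.74 and 2.52 CPM, belonged to replicates 5 and 1, the libraries with the most choroid plexus and the most pituitary RNA, and the other controls overlapped the ExpOF mice. Over the 23 libraries log2 CPM of Igf2 correlated at r = 0.587 with the choroid plexus sum, 0.585 with the mural and 0.576 with the leptomeningeal sum, whose part was not tested.

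The log2 fold change of Igf2 on d14 was -1.04 (SE 0.304, edgeR p = 0.00219, adjusted p = 0.135, exact two-sided permutation p = 0.0325). The exact p lay between 0.0619 and 0.0952 with 8 of the 11 libraries left out in turn, those other than Control d14 replicates 2 and 3 and ExpOF d14 replicate 6. With replicates 1 and 5 left out it was -0.31, with the 4 libraries richest in choroid plexus or pituitary RNA (also Control d14 replicate 2 and ExpOF d14+3 replicate 4) left out -0.47, in July mice -0.33 and in September mice, whose only controls are those replicates, -1.71. On d14+3 Igf2 stood at 0.585 to 1.30 CPM, median 1.00, in controls and at 0.505 to 1.35 CPM, median 0.726, in ExpOF mice, a log2 fold change of -0.27 (edgeR adjusted p = 0.814).

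Igf2 is also uncertain in its assignment. Of its 5723 exonic bases, 3596 (62.8%) lie in exons of Gm49394 on the same strand, and the table gave Gm49394 0 counts in all 24 libraries. Whether reads in shared exons were dropped in counting was not given in the sources used here. Divided by the 2127 unshared bases alone, the same counts gave 0.482 FPKM in place of 0.179, still the lowest level of the 10 members.

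Insr (ENSMUSG00000005534, mm10 chr8:3122061-3279617, minus strand), the receptor for insulin, stood at 55.7, 59.9, 64.5, 74.3 and 85.0 CPM in Control d14 and 73.8 to 85.4 CPM, median 78.0, in ExpOF d14. Igf1r (ENSMUSG00000005533, mm10 chr7:67952827-68233668, plus strand), the receptor for IGF-1, stood at 45.8, 53.8, 58.1, 58.3 and 68.6 CPM and at 59.6 to 70.8 CPM, median 64.4. For both receptors Control d14 replicate 1 was the highest control and lay among the ExpOF mice, while 3 of 5 controls for Insr and 4 of 5 for Igf1r were below every ExpOF mouse. The log2 fold changes on d14 were 0.21 for Insr (SE 0.112, edgeR adjusted p = 0.219, exact permutation p = 0.0693) and 0.19 for Igf1r (SE 0.0924, adjusted p = 0.192, exact permutation p = 0.0649).

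On d14+3 Insr stood at 53.2 to 78.9 CPM, median 74.4, in controls and 56.8 to 84.8 CPM, median 74.5, in ExpOF mice, a log2 fold change of 0.08 (edgeR adjusted p = 0.839). Igf1r stood at 51.0 to 68.6 CPM, median 60.5, in controls and 51.0 to 69.1 CPM, median 68.2, in ExpOF mice, a log2 fold change of 0.10 (edgeR adjusted p = 0.791). The groups overlapped for both receptors. In Igf1r, 5 of the 6 ExpOF d14+3 mice lay close together and replicate 5, at 51.0 CPM, lay apart below them.

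Irs1 (ENSMUSG00000055980, mm10 chr1:82233101-82291416, minus strand) is a substrate of both receptors. In Control d14 it stood at 5.47, 7.32, 7.82, 10.5 and 14.0 CPM, and in ExpOF d14 at 9.71 to 13.3 CPM, median 11.98. Replicate 1 was again the highest control, above every ExpOF mouse, and 3 controls were below every ExpOF mouse. The log2 fold change was 0.36 (SE 0.178, edgeR adjusted p = 0.197, exact permutation p = 0.0909). On d14+3 the levels were 6.38 to 12.1 CPM, median 10.8, and 8.69 to 13.0 CPM, median 11.1, a log2 fold change of 0.13 (edgeR adjusted p = 0.826).

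Irs2 (ENSMUSG00000038894, mm10 chr8:10984681-11008458, minus strand), the other substrate, varied least of all members. It stood at 73.6, 76.7, 78.2, 80.8 and 90.1 CPM in Control d14 and 77.3 to 91.8 CPM, median 87.9, in ExpOF d14, a log2 fold change of 0.11 (SE 0.0603, edgeR adjusted p = 0.217). On d14+3 it stood at 82.4 to 95.02 CPM, median 90.1, in controls and 81.8 to 95.7 CPM, median 86.6, in ExpOF mice, a log2 fold change of -0.02 (edgeR adjusted p = 0.918). Groups overlapped on both days. In controls Irs2 was higher on d14+3 by 0.16 on the log2 scale, without passing the adjusted test (edgeR p = 0.0157, exact permutation p = 0.0346).

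Foxo1 (ENSMUSG00000044167, mm10 chr3:52268336-52353221, plus strand) encodes the transcription factor that insulin signalling keeps from the nucleus, a control that acts on the protein and is not read by these counts. It stood at 21.9, 22.2, 24.0, 25.4 and 28.8 CPM in Control d14 and 23.3 to 27.4 CPM, median 25.3, in ExpOF d14. On d14+3 it stood at 20.9 to 27.2 CPM, median 22.8, in controls and 22.8 to 27.2 CPM, median 23.6, in ExpOF mice. The groups overlapped throughout, with log2 fold changes of 0.05 on d14 (SE 0.0785, edgeR adjusted p = 0.694) and 0.06 on d14+3 (edgeR adjusted p = 0.836). Irs1, Irs2 and Foxo1 each share exonic bases with a gene on the opposite strand, 30.9%, 2.56% and 7.78% of their length. Those partners held 0, 732 and 0 counts in all libraries together, and the strand setting of the counting was not given in the sources used here.

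The binding proteins differ in the sequence before their transcription start. The 100 bases before the most upstream start in RefSeq or the GENCODE annotation (GRCm38.p6, the mm10 assembly) are shown for the 3 binding protein genes. For Igfbp3 that start, at 7213923, lies upstream of the gene end in the deposited counts, 7213897. They were chosen because Igfbp4 was the member with the smallest exact p on d14 and its stretch alone held the string TATAAA, the core of a TATA box, printed in capitals. The other stretches hold related strings of A and T that were not searched for. The printed stretches are chr11:7213924-7214023 on the minus strand for Igfbp3, chr11:99041144-99041243 on the plus strand for Igfbp4 and chr1:72874885-72874984 on the minus strand for Igfbp5, each written 5′ to 3′.
Igfbp3: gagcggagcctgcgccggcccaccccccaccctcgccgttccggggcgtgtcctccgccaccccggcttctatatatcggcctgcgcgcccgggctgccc
Igfbp4: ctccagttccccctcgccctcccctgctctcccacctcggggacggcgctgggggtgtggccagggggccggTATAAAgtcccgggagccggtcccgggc
Igfbp5: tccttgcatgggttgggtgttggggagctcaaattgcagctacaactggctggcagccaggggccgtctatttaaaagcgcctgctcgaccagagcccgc

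The motif in Igfbp4 begins 28 bases before that start. Searched on either strand in windows of 300 bases around the RefSeq start, TATAAA was in 1 of the 12 windows of members (9 members had a window, Insr had none) and in 13.6% of 32851 windows of all genes. The core of the FoxO motif, GTAAACA, was in 0 of the 12 and in 3.65% of all. The G and C content of the printed stretches was 77.0% for Igfbp3, 75.0% for Igfbp4 and 59.0% for Igfbp5. A match is a stretch of letters and not a measured site, and a missing match says nothing of a factor.

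Igfbp3 (ENSMUSG00000020427, mm10 chr11:7206086-7213897, minus strand) encodes the main IGF carrier of the blood. It stood at 10.96, 11.1, 11.8, 11.9 and 13.7 CPM in Control d14 and 10.9 to 12.2 CPM, median 11.5, in ExpOF d14. On d14+3 it stood at 10.97 to 12.5 CPM, median 11.6, in controls and 7.90 to 14.0 CPM, median 11.5, in ExpOF mice. The groups overlapped on both days, and the log2 fold changes were -0.05 on d14 (SE 0.0953, edgeR adjusted p = 0.772) and -0.06 on d14+3 (edgeR adjusted p = 0.864).

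Igfbp4 (ENSMUSG00000017493, mm10 chr11:99041244-99054392, plus strand) encodes a binding protein that mostly restrains IGF action. In Control d14 it stood at 11.4, 14.2, 16.3, 16.7 and 18.4 CPM and in ExpOF d14 at 7.96 to 11.7 CPM, median 10.6. Of the 6 ExpOF mice 5 were below every control, and the ExpOF values overlapped the controls only at Control d14 replicate 3, the lowest control. The log2 fold change was -0.58 (SE 0.189, 0.667-fold, edgeR p = 0.00501, adjusted p = 0.135), with an exact two-sided permutation p of 0.00433, unadjusted among 20 such tests of diet.

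On d14+3 Igfbp4 ranged widely in both diets, from 9.86 to 21.7 CPM, median 14.7, in controls and from 10.7 to 22.0 CPM, median 12.3, in ExpOF mice. The log2 fold change there was -0.10 (edgeR adjusted p = 0.883), and the difference between the days in the effect of diet was 0.49 (edgeR adjusted p = 0.903). The d14 value kept its sign in the July cohort (-0.48) as in September (-0.71), and each left-out library gave between -0.67 and -0.51. With the 4 libraries richest in other tissue left out it was -0.45 (edgeR adjusted p = 0.471).

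The summed markers of the leptomeninges moved with Igfbp4 on d14. Their sum over 14 genes was 372 to 748 CPM, median 583, in Control d14 and 290 to 436 CPM, median 382, in ExpOF d14, and markers of mural cells, the pericytes and smooth muscle of vessels, summed to 259 to 286 CPM and 230 to 260 CPM. The leptomeningeal sum rests mostly on Ptgds, with 189005 counts over the 23 libraries against 13230 for Col1a2, the next of that list. All 14 genes were lower in ExpOF d14, but not alike. The log2 fold change was -0.70 for Ptgds and -1.33 for Slc13a4. It was -0.32 for Col1a2, -0.22 for Dcn, -0.20 for Bgn and -0.10 for Col3a1. Over the 23 libraries the log2 CPM of Igfbp4 correlated with the log2 sum of leptomeningeal markers at r = 0.753 and of mural markers at r = 0.774, and less closely with those of microglia (0.580) and astrocytes (-0.605). A covariate was made from the mean log2 CPM of the leptomeningeal markers, which weighs each gene alike and is not the sum. With it the d14 log2 fold change of Igfbp4 was -0.32 (edgeR adjusted p = 0.180), so its size came down while its sign was kept. The leptomeningeal markers were themselves lower in ExpOF d14, so that fit cannot separate the cell mixture from diet. What part the cell mixture has in the difference was not tested.

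**Figure D4:**
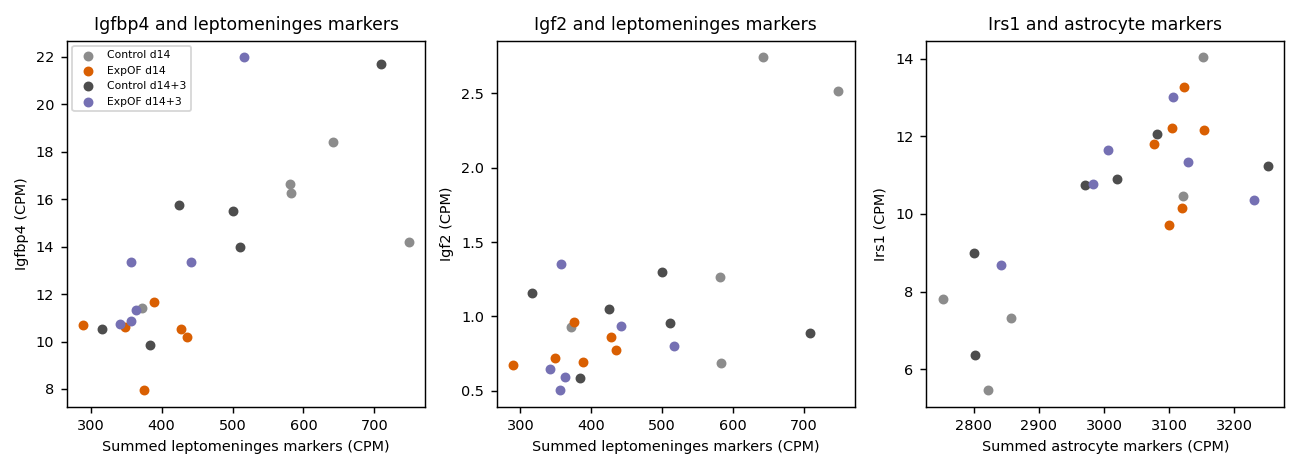
Igfbp4 and Igf2 against the summed leptomeningeal markers and Irs1 against the summed astrocyte markers, in CPM, 1 point for each of 23 libraries, coloured by group. The r values are of log2 CPM with the log2 marker sum, not of the linear values drawn. Igfbp4 (r = 0.753) and Irs1 (r = 0.773) follow the marker sum, and Igf2 (r = 0.576) has its 2 highest points in Control d14. The leptomeningeal sum rests mostly on Ptgds.

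Igfbp5 (ENSMUSG00000026185, mm10 chr1:72857932-72874884, minus strand) encodes the most abundant of the 3 binding proteins here. It stood at 167, 181, 198, 210 and 220 CPM in Control d14 and 186 to 213 CPM, median 203, in ExpOF d14, with overlap and a log2 fold change of 0.04 (SE 0.0658, edgeR adjusted p = 0.678). On d14+3 controls lay in the narrow range of 213 to 227 CPM, median 219, and ExpOF mice at 198 to 244 CPM, median 219, a log2 fold change of -0.004 (edgeR adjusted p = 0.991). Averaged over both diets Igfbp5 was higher on d14+3 by 0.15 on the log2 scale (edgeR adjusted p = 0.0651). That difference passed under DESeq2 (adjusted p = 0.0295) and with Control d14 replicate 1 left out (0.17, edgeR adjusted p = 0.030).

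**Figure D5:**
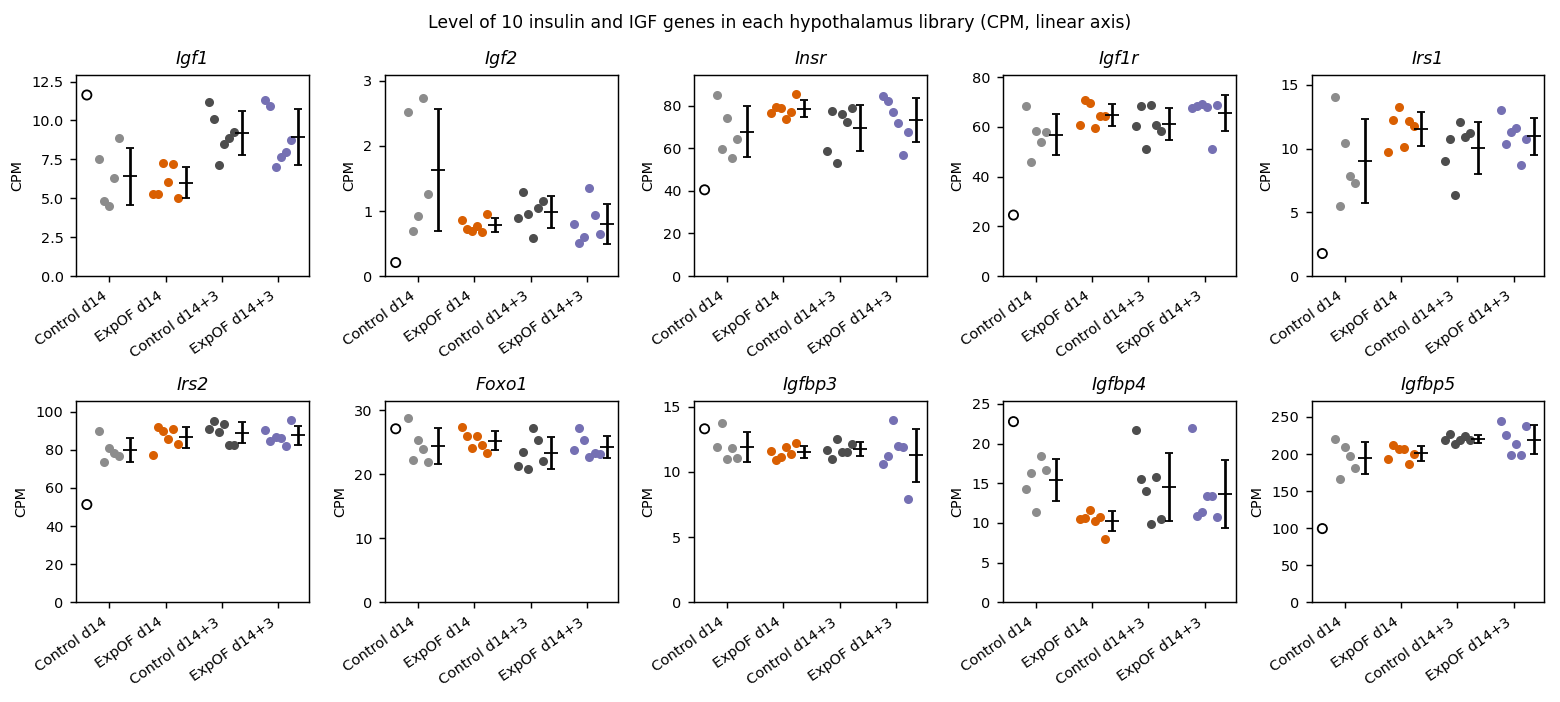
CPM of the 10 members in each library of the 4 groups, with the mean ± SD of 5 or 6 mice. The open circle is the Control d14 library the study left out. Control d14 has the largest SD of the 4 groups in all members but Igfbp3 and Igfbp4, and the open circle lies below the other controls for Insr, Igf1r, Irs1, Irs2, Igf2 and Igfbp5 and above them for Igf1 and Igfbp4.

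A single library decided how many members passed on d14. With Control d14 replicate 1 left out, 4 members passed the edgeR test, Insr (0.31, adjusted p = 0.0448), Igf1r (0.27, adjusted p = 0.0384), Irs1 (0.57, adjusted p = 0.0224) and Igfbp4 (-0.61, adjusted p = 0.0383), and so did 22.0% of all genes. With replicate 5 left out as well, 0 members passed and 0.0154% of all genes did, and with the 4 libraries richest in other tissue left out 0 members and 0.00503% of all genes passed. Replicate 1 was the highest control for Insr, Igf1r, Irs1, Irs2, Foxo1 and Igfbp5 and had the highest pituitary sum. Replicates 1 and 5 also had the lowest RNA integrity numbers of the d14 mice used, 8.6 and 8, against 9.6 to 10 in ExpOF d14. What part RNA integrity has in these levels was not tested beyond fits with it as a covariate. The study's left-out mouse lay at the opposite end, with 40.5 CPM of Insr, 24.5 CPM of Igf1r and 1.77 CPM of Irs1.

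The receptors and Irs1 varied together. Over the 23 libraries the correlations of log2 CPM were r = 0.868 between Igf1r and Irs1, 0.834 between Insr and Irs1 and 0.767 between Insr and Igf1r, values that share library, depth and tissue mixture. Each also correlated with the summed markers of several cell types, positively with the astrocyte sum (r = 0.906 for Insr, 0.773 for Irs1 and 0.645 for Igf1r) and negatively with the tanycyte and ependymal sum (-0.599, -0.648 and -0.615). Insr correlated at -0.703 with the microglial and -0.676 with the oligodendrocyte sum, and Igf1r at -0.658 and Irs1 at -0.632 with the hypothalamic sum. The astrocyte sum was 2752 to 3153 CPM, median 2858, in Control d14 and 3077 to 3154 CPM, median 3112, in ExpOF d14. Its genes did not all move alike. Slc1a2 (log2 fold change 0.21) and Slc1a3 (0.16), which held the most counts of that list, were higher in ExpOF d14. Aqp4 (0.17), Fgfr3 (0.03) and Gja1 (0.02) were also higher, while Agt (-0.30), Gfap (-0.13) and Aldh1l1 (-0.12) were lower. The part of the cell types named here in the receptor levels was not tested. Igf1 and Igfbp5 correlated at r = 0.589 with each other and at -0.601 and -0.832 with the hypothalamic marker sum.

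Among all genes tested, those most like a member over the 23 libraries were named for each. Insr was followed by Tnik (r = 0.978), Dcc (0.975) and Uggt2 (0.974), and Irs1 by Slc9a7 (0.964), Phf8 (0.963) and Klhl11 (0.961). For Igf1r they were Pde3a (0.918), Tjp1 (0.916) and Rbfox2 (0.914), for Irs2 Srrm4 (0.898), Shank2 (0.886) and Ppm1l (0.875), and for Igfbp5 Dennd5a (0.901), Asap2 (0.882) and Gramd1b (0.882). Igf1 was followed by Gm42504 (0.878), Ildr2 (0.850) and Slc25a37 (0.819), and Igfbp4 by Arpc1b (0.892), Sh3tc1 (0.881) and Lgals1 (0.855). The nearest for Foxo1, Igf2 and Igfbp3 were Mettl4 (0.795), Slc13a4 (0.761), a gene of the leptomeningeal list, and 1110059E24Rik (0.791).

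The wider pathway was read through 81 other genes in 4 lists, of which 73 were tested, and 0 passed the adjusted test on either day (smallest adjusted p 0.135 on d14 and 0.438 on d14+3). On d14, 18 had an unadjusted p under 0.05 with a higher and 3 with a lower level in ExpOF, together 28.8% of the 73 against 26.7% of all genes. On d14+3, 0 had one with a higher (2.91% of all genes) and 5 with a lower level (4.2%), together 6.85% of the 73 against 7.11% of all genes. With Control d14 replicate 1 left out, 22 of them (30.1%) passed the adjusted test on d14, 19 higher, as did 22.0% of all genes. The insulin genes themselves were at or near 0, with 0 counts of Ins1 and 29 of Ins2 over the 23 libraries.

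The list of other genes of the IGF system (14 of 20 tested) held ligands, receptors, substrates, binding proteins, proteases and RNA-binding proteins, among others. In it Igfbp2, a binding protein of choroid plexus and meninges, was lowest relative to control on d14. Its level was 13.1 ± 11.9 CPM in Control d14 and 4.39 ± 0.779 CPM in ExpOF d14 (log2 fold change -1.57, edgeR adjusted p = 0.135). The control mice ran from 4.84 to 34.1 CPM and the ExpOF mice from 3.62 to 5.37 CPM. No estimate for Igfbp2 without the libraries richest in other tissue is given here. Igf2r, which clears IGF-2, was 0.26 higher on the log2 scale (edgeR adjusted p = 0.145), Igf2bp3, an RNA-binding protein, 0.34 higher (adjusted p = 0.141) and the protease gene Htra1 lower (log2 fold change -0.30, adjusted p = 0.138). On d14+3 Irs3 was at 0.647 CPM in controls and 0.381 CPM in ExpOF mice (edgeR adjusted p = 0.702).

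Of 20 adaptors and regulators of the receptors, 4 had an unadjusted p under 0.05 on d14, all higher (13.1% of all genes were higher at that p), among them the ubiquitin ligase Cbl (0.40, edgeR adjusted p = 0.137) and the exchange factor Sos1 (0.39, adjusted p = 0.146). The count was 1 without Control d14 replicate 2 and 0 in September mice alone. On d14+3, 2 were lower, the Akt inhibitor Trib3 (-0.56, edgeR adjusted p = 0.645) and the adaptor Grb2 (-0.09, adjusted p = 0.688). Of 19 genes of the phosphoinositide 3-kinase and Akt cascade, 8 were higher and 0 lower at that p on d14, against 13.1% and 13.6% of all genes. That count of higher genes was 3 without Control d14 replicate 2, 5 without Control d14 replicate 5 or 6 or ExpOF d14 replicate 3, 11 without Control d14 replicate 1, and 0 in September mice alone. They included the catalytic subunit Pik3ca (0.26, edgeR adjusted p = 0.135), Rictor of the second mTOR complex (0.41, adjusted p = 0.135) and the kinase Gsk3b (0.27, adjusted p = 0.136). The list's median log2 fold change was 0.12 on d14 and 0.06 on d14+3.

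Of 20 tested FoxO factors and textbook FoxO targets, 4 were higher and 1 lower at an unadjusted p under 0.05 on d14, against 13.1% and 13.6% of all genes. With the 4 libraries richest in other tissue left out 0 were higher, and in September mice alone 2. The cell cycle inhibitor Cdkn1b stood at 37.0 ± 2.44 CPM in Control d14 and 45.6 ± 3.94 CPM in ExpOF d14 (log2 fold change 0.30, edgeR adjusted p = 0.135) and was the only gene of the 4 lists whose groups did not overlap that day, 1.37% of the 73 against 2.5% of all genes. The superoxide dismutase Sod2 was 0.17 higher (edgeR adjusted p = 0.135) and the stress gene Gadd45a lower (log2 fold change -0.38, adjusted p = 0.135). On d14+3 Ddit4, an inhibitor of mTOR complex activity, stood at 36.1 ± 7.00 CPM in controls and 27.9 ± 3.68 CPM in ExpOF mice (-0.37, edgeR adjusted p = 0.438), and Foxo4 was lower (-0.13, adjusted p = 0.641).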

How the data were processed

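Poly(A) RNA from whole hypothalamus, 1 mouse a library, had been sequenced by the study. The deposited values are raw counts of read pairs per gene, which the authors made with STAR on mm10 and featureCounts 1.6.4, unnormalised, beside each gene's exonic length. The strand setting is not given in the sources used here. Groups came from the sample labels. Symbols matched 55144 of 55471 genes. The left-out Control d14 library was found by matching mean expression in the study's table, whose fold changes and p-values were not used.

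Counts were filtered (filterByExpr, minimum count 10, minimum total 15), TMM-scaled and fitted over the 4 groups of 23 libraries by robust quasi-likelihood in edgeR 4.0.16 (R 4.3.3), and p-values were adjusted over 18992 genes by Benjamini-Hochberg with a threshold of 0.05. The study's own tool, DESeq2 (here 1.42.0), was an alternative. Single genes were also compared by 40 exact two-sided permutation tests of mean log2 CPM (prior count 2), 20 of diet and 20 of day, unadjusted. Igf2 rested on 6 to 81 counts a library and Igf1 on 64 to 309, so counting error weighs most on those; totals were 8928182 to 34848437. The edgeR step was run on simulated counts with known changes, a common spread for all genes and no RNA of other tissue. That check therefore does not bear on the uneven Control d14 libraries.

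The members, lists and comparisons were chosen with earlier results of these data known. Named were all 10 members, Igfbp2, Igf2r, Ins1 and Ins2, up to 3 genes of each list and day with the smallest unadjusted p, and the 3 genes most correlated with each member. A gene that this rule also names is not reported here. The marker lists cover 11 cell types, of which the sums that bear most on a member are reported. Some marker genes are named to show what a sum rests on. Promoter windows come from RefSeq tables of GRCm38.p6, and the printed stretches end at the most upstream RefSeq or GENCODE start. Alternatives were DESeq2, other scaling and filters, each library left out, single cohorts, covariates, a block for replicate number and all 24 libraries.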

Additional observations from a re-analysis of the deposited data

Results flagged for a closer look

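In 40 groups of a member's CPM values, the highest or lowest mouse was compared with its neighbours, and 2 stood apart, where chance alone gives about 1 in 20 groups. Igf1r in ExpOF d14+3 replicate 5 was at 51.0 CPM, with the next mouse at 67.6 CPM, a gap of 0.917 of the group's range. Igfbp4 in ExpOF d14+3 replicate 1 was at 22.0 CPM, with the next at 13.4 CPM, a gap of 0.765 of the range. The Control d14 library left out of the comparisons, replicate 4, held Igf1 at 11.6 CPM, above the 4.53 to 8.88 CPM of the other controls of that day, and Igfbp4 at 22.8 CPM, above their 11.4 to 18.4 CPM. Its leptomeningeal markers summed to 1564 CPM and its choroid plexus markers to 4597 CPM.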

How the results depend on the processing

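Igf1 averaged over both diets passed the edgeR test with each of the 23 libraries left out in turn, under DESeq2, other scaling, other filters and covariates. No member passed then with all 24 libraries, in July or September alone, or with the 4 libraries richest in other tissue left out (0 each, with 1.91%, 0.00536%, 0.364% and 1.15% of all genes). It was 2 members (Igf1 and Igfbp5) under DESeq2 (1.8% of the 55471 genes counted), and 1 to 2 with single libraries left out. It was also 2 with the leptomeningeal covariate and without Control d14 replicates 1 and 5 (3.71% and 3.92% of all genes tested). Igf1 alone passed between ExpOF days under DESeq2 (1, 0.355% of the genes counted) and between control days with the leptomeningeal covariate (1, 1.26% of the genes tested). The DESeq2 shares have more genes below them and are not comparable with the edgeR shares. On d14, members called ranged from 0 to 4 and other pathway genes from 0 to 22 with 1 library left out, the highest without Control d14 replicate 1. DESeq2 called 2 of those pathway genes (Igfbp2 and Cdkn1b, with 0.319% of the 55471 genes counted). Replicate numbers did not pair mice (correlations -0.153 to -0.024 on d14, -0.21 to 0.223 on d14+3). With a replicate block 0 members passed on either day and Igf1 was 0.55 between days (edgeR adjusted p = 0.0158). With all 24 libraries the difference in mean log2 CPM on d14 passed the exact permutation test for Insr (0.35), Igf1r (0.40), Irs1 (0.80) and Irs2 (0.23) and no longer did for Igf2 (-0.41), which also missed it with 8 of 11 libraries left out in turn. With 1 library left out it ranged from 0.16 to 0.31 for Insr, 0.12 to 0.27 for Igf1r, 0.26 to 0.60 for Irs1, 0.087 to 0.16 for Irs2, -1.05 to -0.58 for Igf2, -0.18 to 0.0617 for Igf1, -0.0731 to 0.0082 for Igfbp3 and -0.0056 to 0.094 for Igfbp5. On d14+3 it ranged from 0.0462 to 0.17 for Igf1r, which passed without ExpOF d14+3 replicate 5 (exact permutation p = 0.0390), -0.12 to 0.0176 for Igf1, -0.15 to 0.0183 for Igfbp3, -0.24 to 0.0305 for Igfbp4 and -0.0402 to 0.0201 for Igfbp5. Small edgeR fold changes turned sign. With 1 library left out the ranges were -0.22 to 0.032 for Igf1, -0.0791 to 0.005 for Igfbp3 and -0.0122 to 0.0955 for Igfbp5 on d14, and -0.12 to 0.0311 for Igf1, -0.13 to 0.0228 for Igfbp3, -0.29 to 0.0568 for Igfbp4 and -0.0371 to 0.0254 for Igfbp5 on d14+3. In July alone Irs2 (0.0715), Igf1 (0.0829) and Igfbp5 (0.0113) turned on d14+3 and Igf2 between control days (0.10). In September alone Foxo1 (-0.11) and Igfbp5 (-0.0326) turned on d14, and Insr (-0.0002), Igf1r (-0.0829), Foxo1 (-0.0461), Igf2 (0.16), Igfbp3 (0.0042) and Igfbp4 (0.0433) on d14+3. Igfbp5 turned on d14+3 with RNA integrity (0.0031) or leptomeningeal markers (0.0049) as a covariate, the latter also turning Igf1 on d14 (0.0501) and d14+3 (0.0043). Igf2 turned between control days without Control d14 replicates 1 and 5 (0.0217), and without the 4 libraries Igfbp3 turned on d14 (0.0724) and Igf1 (0.0073) and Igfbp5 (0.0055) on d14+3. These last 2 settings and the average over diets were chosen after seeing the data, and the cause of these changes was not tested. Depth limits Igf2 and Igf1 most.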
